A study of Mus musculus with 121 samples.

Results

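The mouse tumours scc7 and nrs1 were set against each other after 30 Gy, in 9 of the 20 arrays of these tumours, within a series of 54 groups of arrays that followed 6 transplanted tumours after irradiation. The arrays were taken by their labels: scc7 5 days after carbon ions (2 arrays), nrs1 5 days after carbon ions (2 arrays), scc7 8 days after gamma rays (2 arrays) and nrs1 8 days after gamma rays (3 arrays). Per the labels, each tumour is a squamous cell carcinoma (SCC) of spontaneous origin in a C3H/He mouse. Per the design text, tumours were carried in the hind legs of male C3H/HeMs mice, which received a single local dose before the tumour was dissected; that text names gamma rays, and the carbon ions are known from the labels. Total RNA of the dissected tumour was labelled with Cy5 and hybridised to CodeLink 1-colour arrays.

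The difference between the tumours was taken separately within the carbon and within the gamma arrays, and genes were kept where both differences agreed. The 2 comparisons share no array. Beam and day change together between them and cannot be told apart. Array runs, which the labels do not name, may change with them. No unirradiated array of either tumour was analysed here, so each difference is one between irradiated tumours and not a response to radiation. The labels do not say whether arrays of a group come from separate animals, and the spread behind the p-values may therefore be technical.

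Squamous carcinomas arise from stratified epithelium, such as that of the skin or mouth. Its basal cells express the paired keratins Krt5 and Krt14 under the transcription factor Trp63, and its upper cells express involucrin, small proline-rich proteins and other parts of the cornified envelope. Carcinoma cells can lose epithelial adhesion molecules such as Cdh1 and Epcam and gain mesenchymal genes such as Vim, a programme in which the Snail and Zeb families of repressors act. A transplanted tumour also holds blood vessels, leukocytes and leg tissue of the host, and in RNA of the whole tumour fewer cells of a type and less RNA per cell cannot be told apart.

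Values are log2 of the deposited intensity, with anything under a floor of -2.98 set to the floor. After a filter on dim probes 15366 genes remained, each read by 1 probe. Gamma arrays of these 2 tumours lacked a value for 13.51 to 16.28% of all probes and carbon arrays for 0.5438 to 1.231%. The median SD of a gene between arrays of a group was 0.0907 in scc7 and 0.0801 in nrs1 on carbon arrays, and 0.0871 in scc7 and 0.217 in nrs1 on gamma arrays. The wider spread came with nrs1 gamma replicate 2, whose values correlated least with the other 2 arrays of its group (lowest Pearson r across genes 0.972).

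A gene was called where the limma contrast, adjusted by Benjamini and Hochberg over every gene tested, had an adjusted p under 0.05. On carbon arrays 4759 of 15122 genes (31.5%) were higher in scc7 and 3363 (22.2%) were lower. On gamma arrays 4458 of 14737 genes (30.3%) were higher in scc7 and 3714 (25.2%) were lower. Of the 14513 genes tested in both, 3260 (22.5%) were higher in scc7 in both and 2229 (15.4%) were lower in both, and these 5489 are the genes described here as agreeing. A difference of at least 2-fold in both was found for 1158 genes higher in scc7 (7.98%) and 891 lower (6.14%). Opposite calls were made for 198 genes (1.36%). Arrays of the tumours did not overlap on either beam in 3114 of the 3260 agreeing higher genes and 2122 of the 2229 lower. These genes had been called from the same values, which favours a lack of overlap. The share over all tested genes is not given here.

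The largest agreeing differences lay on the lower side. At least 8-fold in both comparisons were 64 genes higher in scc7 and 206 lower, and at least 64-fold were 1 gene higher and 36 lower. Across the 14513 genes the 2 differences had a Pearson r of 0.837; genes are not independent replicates, and the points share tumours and probes. The median difference of all genes was 0.09 on carbon and 0.03 on gamma arrays (log2).

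**Figure D1:**
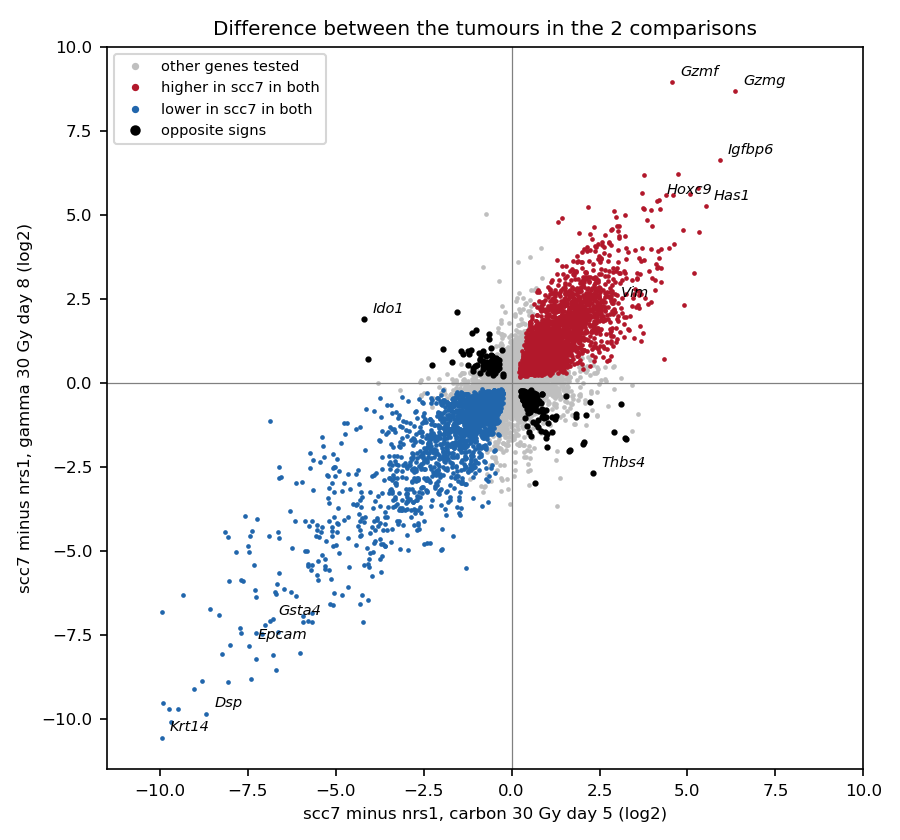
Each point is 1 of 14513 genes, with the log2 difference scc7 minus nrs1 on carbon 30 Gy day 5 arrays on the horizontal axis and on gamma 30 Gy day 8 arrays on the vertical axis. Red points (3260) were called higher and blue points (2229) lower in scc7 in both comparisons, black points (198) were called with opposite signs, and the blue arm runs to about -10 on both axes, beyond the length of the red arm.

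The markers of squamous epithelium divided the tumours. Krt14 had log2 intensities of -1.36 and -1.07 in scc7 and 8.69 and 8.77 in nrs1 on carbon arrays, and -2.06 and -2.15 in scc7 and 8.52, 8.33 and 8.53 in nrs1 on gamma arrays. Every scc7 array was thus far below every nrs1 array, with differences of -9.95 ± 0.30 (SE; adjusted p = 8.51e-40) and -10.56 ± 0.27 (adjusted p = 1.15e-43), or 987-fold and 1515-fold. Its partner keratin Krt5 had -1.07 and -0.80 in scc7 and 8.71 and 8.80 in nrs1 on carbon arrays, and -1.34 and -2.0 in scc7 and 8.57, 8.25 and 8.44 in nrs1 on gamma arrays, differences of -9.69 on carbon and -10.09 on gamma arrays.

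Trp63, the regulator of the basal layer, had -0.64 and -0.74 in scc7 and 2.32 and 2.25 in nrs1 on carbon arrays, and -1.98 and -1.22 in scc7 and 3.12, 2.63 and 3.07 in nrs1 on gamma arrays. It was lower in scc7 with differences of -2.97 ± 0.38 (adjusted p = 2.47e-10) and -4.54 ± 0.35 (adjusted p = 1.92e-19), and a second Trp63 probe gave -6.72 on carbon arrays. The wound and tumour keratin Krt6a had 1.97 and 2.17 in scc7 and 8.69 and 8.79 in nrs1 on carbon arrays, and 1.90 and 1.90 in scc7 and 8.16, 7.64 and 7.86 in nrs1 on gamma arrays, without overlap. Dsg3, a desmosomal cadherin of stratified epithelium, lay at the floor on both scc7 carbon arrays against 5.47 and 5.50 in nrs1, at least 352-fold lower, and had no value on the scc7 gamma arrays.

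Several squamous keratins could be compared on carbon arrays only, because the scc7 gamma arrays held no value. Krt17 had -2.57 and -2.98 in scc7 and 6.25 and 6.40 in nrs1, Krt1 -2.98 and -2.73 in scc7 and -0.68 and -0.79 in nrs1 and the cornified envelope protein Ivl -2.98 and -2.47 in scc7 and 3.83 and 3.79 in nrs1. In each of the 3 genes 1 scc7 array sat at the floor. The nrs1 gamma arrays did hold values for them, between 6.71 and 7.26 for Krt17, between 1.90 and 2.46 for Ivl and between -2.18 and -1.74 for Krt1.

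A few squamous markers differed less. Sfn, the epithelial 14-3-3 protein stratifin, had 4.39 and 4.35 in scc7 and 7.61 and 7.67 in nrs1 on carbon arrays, and 4.34 and 4.44 in scc7 and 7.66, 6.54 and 7.44 in nrs1 on gamma arrays, lower in scc7. The fibrosarcomas of the series had similar Sfn means, 3.87 to 4.61. Lor, a late cornified envelope protein, had 1.03 and 0.99 in scc7 and 1.13 and 1.09 in nrs1 on carbon arrays, and 0.94 and 0.89 in scc7 and 1.06, 1.00 and 0.76 in nrs1 on gamma arrays, and did not pass the test in either comparison (adjusted p = 0.625 and 0.906). Sprr1b, a small proline-rich envelope protein, had 1.56 and 1.66 in scc7 and 7.96 and 7.87 in nrs1 on carbon arrays, and 2.17 and 1.83 in scc7 and 6.14, 5.16 and 6.13 in nrs1 on gamma arrays.

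As lists, 14 of 16 basal layer genes tested in both were lower in scc7 in both and 1 was higher. Of 28 genes of squamous differentiation and the cornified layer 26 were lower and none higher. Of all genes 15.4% were lower and 22.5% higher, and these shares are the background for each such list count below. The median difference of the basal list was -3.12 over 20 genes on carbon and -2.88 over 16 on gamma arrays. For the cornified list it was -5.57 over 40 genes and -3.75 over 28, so the beams were not compared over the same genes. The basal exception was Dst, a linker of hemidesmosomes with nonepithelial isoforms, at 0.66 and 0.71; a second Dst probe gave -5.67 and -5.91, so its 2 probes disagree. Among the largest in these lists were Perp, a desmosomal protein (-7.27 and -8.22), Sprr3 (-9.93 and -6.82), Sprr2f (-9.34 and -6.30), the secreted epidermal protein Sbsn (-7.26 and -6.38) and the protease inhibitor Serpinb2 (-6.70 and -6.30).

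Simple epithelial and junction genes followed. Epcam, a homophilic adhesion molecule of epithelia, had -0.41 and -0.62 in scc7 and 6.87 and 7.04 in nrs1 on carbon arrays, and -0.80 and -0.93 in scc7 and 6.87, 7.22 and 6.78 in nrs1 on gamma arrays, a difference of -7.47 ± 0.17 (adjusted p = 6.18e-51) and -7.82 ± 0.15 (adjusted p = 7.62e-55). Cdh1, the E-cadherin of adherens junctions, had -0.75 and -0.50 in scc7 and 6.17 and 6.04 in nrs1 on carbon arrays, and 0.10 and -0.48 in scc7 and 5.84, 6.18 and 6.05 in nrs1 on gamma arrays, a difference of -6.73 on carbon and -6.22 on gamma arrays. Krt19 had -1.82 and -1.84 in scc7 and 6.29 and 6.34 in nrs1 on carbon arrays and no value on scc7 gamma arrays, where nrs1 had 6.33, 5.45 and 5.51. Krt8 went another way, with -0.58 and -0.73 in scc7 and -0.97 and -1.12 in nrs1 on carbon arrays (adjusted p = 0.256), and 1.34 and 1.28 in scc7 and 0.65, -0.14 and 0.23 in nrs1 on gamma arrays (adjusted p = 0.000321). Of 30 simple epithelium and junction genes tested in both, 25 were lower in scc7 in both and none was higher.

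By these markers the data go against the label of scc7 as a squamous carcinoma: on its 30 Gy arrays Krt14, Krt5, Trp63, Cdh1 and Epcam had log2 intensities of at most 0.10, while nrs1 had at least 2.25. The name scc7 is kept below as the name of the tumour, without its type. Krt18 had no probe, and Krt10 was too dim to be kept.

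**Figure D2:**
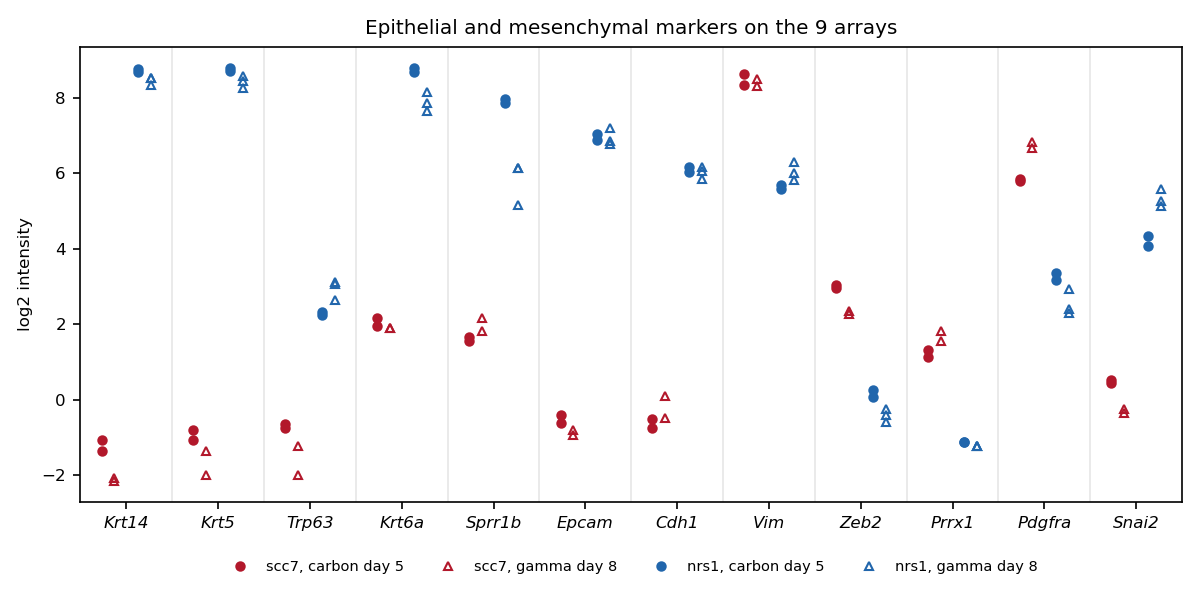
Log2 intensity (vertical axis) of 12 marker genes on the 9 arrays, 1 point per array, with scc7 in red left of nrs1 in blue, filled circles for carbon day 5 and open triangles for gamma day 8. No scc7 point overlaps an nrs1 point of the same beam in any of the 12 genes. The same held for 3114 of the 3260 agreeing genes higher in scc7 and 2122 of the 2229 lower, which were called from these same arrays. The 7 epithelial genes and Snai2 are lower in scc7, and Vim, Zeb2, Prrx1 and Pdgfra are higher.

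Among the 12 agreeing genes furthest below nrs1 were further epithelial genes. Dsp, the desmoplakin that ties desmosomes to keratin, had -0.96 and -0.97 in scc7 and 7.66 and 7.76 in nrs1 on carbon arrays, and -1.87 and -2.03 in scc7 and 7.95, 7.91 and 7.84 in nrs1 on gamma arrays. A second Dsp probe gave a smaller difference of -2.45 on carbon arrays. Ly6d, a surface protein of squamous epithelium, had -0.94 and -0.89 in scc7 and 8.47 and 8.68 in nrs1 on carbon arrays, and -2.29 and -1.64 in scc7 and 7.67, 8.12 and 7.42 in nrs1 on gamma arrays. By the probes used, both genes were over 8 log2 units apart in every pair of arrays from the 2 tumours on the same beam. The 12 were picked for large differences without overlap. The others included Krt90 (-9.90 and -9.52, with 1 scc7 carbon array at the floor), Dmkn, a secreted epidermal protein (-8.80 and -8.89), Gpx2, an epithelial glutathione peroxidase (-8.06 and -8.91), Fxyd3, a regulator of the sodium pump (-8.24 and -8.06), and Rab25, a small GTPase of epithelial recycling endosomes (-7.99 and -7.81).

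The epithelial promoters below are shown because they belong to genes with large agreeing differences and hold the letters CAGGTG, an E-box that repressors of the Snail and Zeb families, among other factors, are known to bind. Sequences are from RefSeq on GRCm38.p6, from 250 bases before to 50 bases after the start of the gene, written 5′ to 3′ on the strand of the gene; capitals mark CAGGTG or its reverse complement. They are Krt5 at chr15:101712856-101713155 (minus strand), Epcam at chr17:87635729-87636028 (plus strand), Rab25 at chr3:88548230-88548529 (minus strand) and Cldn4, a tight junction claudin, at chr5:134946885-134947184 (minus strand).
Krt5: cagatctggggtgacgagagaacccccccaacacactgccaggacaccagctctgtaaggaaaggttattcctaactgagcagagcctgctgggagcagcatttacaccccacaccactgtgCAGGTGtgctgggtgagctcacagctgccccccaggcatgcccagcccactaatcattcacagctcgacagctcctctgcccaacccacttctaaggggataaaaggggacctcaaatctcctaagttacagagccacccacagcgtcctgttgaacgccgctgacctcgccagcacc
Epcam: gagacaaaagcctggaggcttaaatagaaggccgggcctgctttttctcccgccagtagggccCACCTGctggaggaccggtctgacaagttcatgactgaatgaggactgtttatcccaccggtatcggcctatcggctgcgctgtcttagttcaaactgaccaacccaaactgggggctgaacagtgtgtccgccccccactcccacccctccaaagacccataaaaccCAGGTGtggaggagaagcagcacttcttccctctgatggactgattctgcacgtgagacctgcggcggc
Rab25: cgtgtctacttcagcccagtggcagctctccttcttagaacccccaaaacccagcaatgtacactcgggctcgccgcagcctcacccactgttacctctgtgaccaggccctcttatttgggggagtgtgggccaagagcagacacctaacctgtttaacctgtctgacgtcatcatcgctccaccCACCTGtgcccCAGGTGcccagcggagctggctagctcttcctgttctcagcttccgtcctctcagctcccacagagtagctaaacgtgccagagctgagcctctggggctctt
Cldn4: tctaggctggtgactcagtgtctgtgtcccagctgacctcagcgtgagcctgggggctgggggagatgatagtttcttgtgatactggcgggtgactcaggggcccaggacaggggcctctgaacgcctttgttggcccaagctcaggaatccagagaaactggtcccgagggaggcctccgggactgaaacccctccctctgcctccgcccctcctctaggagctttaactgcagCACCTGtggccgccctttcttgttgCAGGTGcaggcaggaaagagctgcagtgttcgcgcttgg

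Cldn4 had -2.29 and -2.60 in scc7 and 5.57 and 5.6 in nrs1 on carbon arrays, and -2.06 and -1.92 in scc7 and 3.74, 4.32 and 3.64 in nrs1 on gamma arrays. Searched on both strands, CAGGTG stood in 28.6% of the promoters of the agreeing genes at least 2-fold lower in scc7 (194 of 678 with a promoter in the table), in 16.2% of those at least 2-fold higher (147 of 908), in 18.7% of all genes tested in both (2172 of 11631) and in 20.2% of the 32851 promoters of the table. Among simple epithelium and junction genes with a promoter, 19 of 25 held it, and among basal layer genes 4 of 9. A match of 6 letters is a description of the sequence and does not show that a factor binds there.

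The repressors themselves were divided between the tumours. Zeb2 had 3.05 and 2.97 in scc7 and 0.07 and 0.27 in nrs1 on carbon arrays, and 2.26 and 2.37 in scc7 and -0.39, -0.58 and -0.24 in nrs1 on gamma arrays, higher in scc7 by 2.84 ± 0.27 (adjusted p = 5.88e-15) and 2.72 ± 0.25 (adjusted p = 6.31e-16); a second Zeb2 probe gave 0.58 and -0.01. Snai2 had 0.44 and 0.53 in scc7 and 4.33 and 4.08 in nrs1 on carbon arrays, and -0.36 and -0.24 in scc7 and 5.59, 5.13 and 5.27 in nrs1 on gamma arrays, lower in scc7 without overlap. Zeb1 had 4.40 and 4.36 in scc7 and 3.81 and 4.11 in nrs1 on carbon arrays (adjusted p = 0.153), and 3.24 and 3.66 in scc7 and 4.54, 3.60 and 4.55 in nrs1 on gamma arrays (adjusted p = 0.00255), while its second probe gave 2.23 and 3.54. The 2 Zeb1 probes disagree, and no direction is given for the gene.

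Vim, the intermediate filament of mesenchymal cells, had 8.35 and 8.64 in scc7 and 5.59 and 5.69 in nrs1 on carbon arrays, and 8.33 and 8.49 in scc7 and 6.30, 6.02 and 5.82 in nrs1 on gamma arrays. It was higher in scc7 by 2.86 ± 0.17 (adjusted p = 1.51e-25) and 2.36 ± 0.15 (adjusted p = 2.62e-23). Prrx1, a homeobox factor of limb and connective tissue mesenchyme, had 1.31 and 1.14 in scc7 and -1.11 and -1.10 in nrs1 on carbon arrays, and 1.82 and 1.57 in scc7 and -1.23, -1.22 and -1.23 in nrs1 on gamma arrays. Twist1 had 3.44 and 3.66 in scc7 and 3.28 and 3.43 in nrs1 on carbon arrays (adjusted p = 0.3), and 3.71 and 3.44 in scc7 and 3.41, 2.88 and 3.02 in nrs1 on gamma arrays (adjusted p = 0.00425). Of 22 mesenchymal identity genes 11 were higher in scc7 in both and 7 lower, so the list moved both ways; Efemp1, a matrix protein of the fibulin family, was among the lower ones at -4.82 and -6.31. Cdh2 was too dim to be kept.

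Pdgfra, a growth factor receptor of fibroblasts, had 5.80 and 5.85 in scc7 and 3.18 and 3.36 in nrs1 on carbon arrays, and 6.82 and 6.66 in scc7 and 2.40, 2.94 and 2.30 in nrs1 on gamma arrays, higher in scc7 by 2.56 ± 0.29 (adjusted p = 5.7e-12) and 4.19 ± 0.27 (adjusted p = 1.92e-23). Of the fibrillar collagens, Col3a1 had 8.14 and 8.28 in scc7 and 7.12 and 7.32 in nrs1 on carbon arrays, and 7.82 and 7.74 in scc7 and 6.38, 7.31 and 6.68 in nrs1 on gamma arrays, overlapping on neither beam; its call was lost on each beam when 1 of several arrays was left out. Col1a1 had 2.68 and 2.42 in scc7 and 2.45 and 2.09 in nrs1 on carbon arrays, and 2.63 and 2.25 in scc7 and 0.62, 2.88 and 1.57 in nrs1 on gamma arrays, and passed in neither. The nrs1 gamma arrays spread over more than 2 log2 units for Col1a1, with replicate 2 highest, and without replicate 2 the gamma difference was 1.34 (adjusted p = 0.0157).

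Col1a2 passed on gamma arrays only (0.52 and 1.44), and on carbon arrays too when the beams were fitted separately. The proteoglycan Dcn had 6.24 and 5.85 in scc7 and 3.90, 3.99 and 4.02 in nrs1 on gamma arrays, higher in scc7 (adjusted p = 0.000442), and on carbon arrays 6.47 and 6.38 in scc7 against 1 value of 2.60 in nrs1, where no test was made. The related Lum had 2.29 and 2.17 in scc7 and 0.99 and 0.89 in nrs1 on carbon arrays (adjusted p = 0.19), and 0.40 and -0.28 in scc7 and 1.95, 2.16 and 2.17 in nrs1 on gamma arrays (adjusted p = 0.0189), opposite in sign; its carbon difference also passed with the beams fitted separately. Of 31 fibroblast and matrix genes 11 were higher in both and 3 lower, and of 25 basement membrane and wound matrix genes 9 were higher and 4 lower, nearer to the share of all genes than the epithelial lists were.

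The 12 genes furthest above nrs1 were of several kinds. They were picked among agreeing genes without overlap of arrays and ranked by the smaller of their 2 differences. Igfbp6, a secreted binder of insulin-like growth factors, had 3.78 and 3.83 in scc7 and -2.42 and -1.80 in nrs1 on carbon arrays, and 5.04 and 4.55 in scc7 and -1.90, -1.92 and -1.67 in nrs1 on gamma arrays, or 5.91 ± 0.29 (adjusted p = 2.32e-29) and 6.62 ± 0.27 (adjusted p = 1.32e-34). Has1, a synthase of hyaluronan, had 3.97 and 3.95 in scc7 and -1.47 and -1.64 in nrs1 on carbon arrays, and 4.04 and 4.17 in scc7 and -0.91, -1.62 and -0.92 in nrs1 on gamma arrays. The adhesion protein gene Amigo2 had 4.84 and 4.17 in scc7 and -0.75 and -0.87 in nrs1 on carbon arrays, and 5.57 and 5.69 in scc7 and -0.39, 0.48 and -0.57 in nrs1 on gamma arrays. In these 3 genes the nrs1 arrays lay near the lower end of the scale.

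Gfra2, a receptor of the GDNF family of ligands, differed by 4.72 and 6.21, while a second Gfra2 probe gave 0.77 on carbon arrays. Slc9a2, a sodium and proton exchanger, differed by 5.07 and 5.63, with 1 nrs1 gamma array without a value. The sulfatase family member Arsj differed by 4.58 and 5.59, the small matrix proteoglycan Ogn by 4.88 and 4.55, Scrn1 by 4.23 and 5.17 and Xlr, an X-linked gene first described in lymphocytes, by 4.38 and 5.6. The remaining 3 of the 12 were the granzymes Gzmg and Gzmf and the lymphocyte adaptor Sh2d1a.

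Gzmg, a granzyme of activated killer lymphocytes, had 6.66 and 6.80 in scc7 and 0.51 and 0.22 in nrs1 on carbon arrays, and 7.60 and 6.98 in scc7 and -1.13, -1.78 and -1.27 in nrs1 on gamma arrays, the 1 gene at least 64-fold higher in both, by 6.36 ± 0.88 (adjusted p = 3.83e-09) and 8.68 ± 0.80 (adjusted p = 3.43e-15). Its neighbour in the family, Gzmf, had 7.10 and 7.25 in scc7 and 2.67 and 2.59 in nrs1 on carbon arrays, and 7.91 and 7.21 in scc7 and -1.08, -1.94 and -1.13 in nrs1 on gamma arrays. Granzymes of this family have similar sequences, and how far their probes read each other was not tested. Sh2d1a, an adaptor of T and NK cell receptors, had 5.19 and 5.30 in scc7 and -0.02 and -0.14 in nrs1 on carbon arrays, and 2.28 and 2.71 in scc7 and -1.71, -2.38 and -1.92 in nrs1 on gamma arrays. All 3 genes were higher on every scc7 array than on any nrs1 array of the same beam.

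Other T and NK cell genes were higher in scc7 as well. The T cell receptor component Cd3g had 6.48 and 6.30 in scc7 and 2.82 and 2.65 in nrs1 on carbon arrays, and 3.75 and 4.60 in scc7 and 1.31, 0.41 and 1.08 in nrs1 on gamma arrays, higher by 3.66 ± 0.62 (adjusted p = 5.2e-07) and 3.24 ± 0.57 (adjusted p = 9.52e-07). The pore-forming Prf1 had 4.77 and 4.74 in scc7 and 1.02 and 0.99 in nrs1 on carbon arrays, and 3.97 and 3.68 in scc7 and -2.25, -2.71 and -2.17 in nrs1 on gamma arrays, and Gzma had 7.20 and 7.64 in scc7 and 4.84 and 4.69 in nrs1 on carbon arrays, and 4.51 and 3.06 in scc7 and 2.01, 1.77 and 1.17 in nrs1 on gamma arrays. Within a beam no scc7 array overlapped an nrs1 array in these genes, as in most agreeing genes.

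The coreceptor Cd8a differed by 3.05 and 4.32 and the granule protein Nkg7 by 3.99 and 4.68, each with 1 nrs1 gamma array without a value. Cd2 differed by 3.75 and 1.47, the NK receptor chain Klrd1 by 3.71 and 4.02 and the chemokine receptor Cxcr6 by 4.47 and 4.02. Foxp3, the factor of regulatory T cells, did not pass (-0.09 and -0.16). Of 25 T and NK cell genes 19 were higher in both and none lower. The median difference was 3.19 over 27 genes on carbon and 2.95 over 25 on gamma arrays. The mean level of the list was 4.00 and 4.05 in scc7 and 1.27 and 1.29 in nrs1 on carbon arrays, and 2.28 and 2.44 in scc7 and 0.31, -0.15 and 0.06 in nrs1 on gamma arrays. Cd3e was too dim to be kept.

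Macrophage and monocyte genes showed the same direction. Mrc1, the mannose receptor, had 5.11 and 5.07 in scc7 and 1.49 and 1.44 in nrs1 on carbon arrays, and 4.24 and 4.55 in scc7 and 1.48, 1.94 and 1.88 in nrs1 on gamma arrays, higher in scc7 by 3.63 ± 0.37 (adjusted p = 1.12e-13) and 2.63 ± 0.34 (adjusted p = 3.32e-10). The complement component C1qa had 7.93 and 8.09 in scc7 and 6.06 and 6.09 in nrs1 on carbon arrays, and 7.02 and 7.32 in scc7 and 5.24, 4.59 and 4.90 in nrs1 on gamma arrays. The monocyte chemokine receptor Ccr2 had 4.35 and 4.25 in scc7 and 1.5 and 1.09 in nrs1 on carbon arrays, and 4.06 and 4.49 in scc7 and 0.77, 0.43 and 1.39 in nrs1 on gamma arrays. In all 3 genes the tumours did not overlap within a beam, as in most agreeing genes.

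C1qb differed by 1.31 and 2.18 and Adgre1, the F4/80 antigen, by 2.48 and 2.56. Of 26 macrophage and monocyte genes 21 were higher in both and none lower, with median differences of 1.87 and 2.16 over 27 genes on each beam. The mean level of the list was 5.67 and 5.76 in scc7 and 4.09 and 4.03 in nrs1 on carbon arrays, and 4.96 and 5.16 in scc7 and 3.36, 3.00 and 3.21 in nrs1 on gamma arrays. Cd68 and Csf1r had no probe.

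MHC class II genes, which antigen-presenting cells express under the coactivator Ciita, were higher in scc7 in 10 of 11 cases, with none lower and medians of 1.59 and 1.80. H2-Aa had 8.29 and 8.77 in scc7 and 6.86 and 6.83 in nrs1 on carbon arrays, and 7.15 and 7.84 in scc7 and 5.83, 5.59 and 5.65 in nrs1 on gamma arrays, higher by 1.69 ± 0.42 (adjusted p = 0.00044) and 1.80 ± 0.38 (adjusted p = 4.21e-05). Ciita had 4.40 and 4.63 in scc7 and 2.71 and 2.70 in nrs1 on carbon arrays, and 3.22 and 3.94 in scc7 and 0.28, 0.60 and 0.60 in nrs1 on gamma arrays. H2-Eb1 differed by 1.44 and 1.74 and H2-Oa, a chain of the modulator H2-O, by 2.11 and 1.29.

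The Y box CTGATTGG of class II promoters, which the factor NF-Y is known to bind, stood in 3 of 7 list promoters of the RefSeq table (GRCm38.p6), 46 to 62 bases before the start, against 4.52% of the promoters of agreeing genes at least 2-fold higher in scc7, 4.28% of those lower, 5.27% of genes tested in both and 4.1% of all promoters, on either strand. The 3 promoters are shown because their genes were higher in scc7 in both comparisons: H2-Aa at chr17:34287774-34288073 (minus strand), H2-Eb1 at chr17:34305617-34305916 (plus strand) and H2-Oa at chr17:34092129-34092428 (plus strand), with the Y box in capitals.
H2-Aa: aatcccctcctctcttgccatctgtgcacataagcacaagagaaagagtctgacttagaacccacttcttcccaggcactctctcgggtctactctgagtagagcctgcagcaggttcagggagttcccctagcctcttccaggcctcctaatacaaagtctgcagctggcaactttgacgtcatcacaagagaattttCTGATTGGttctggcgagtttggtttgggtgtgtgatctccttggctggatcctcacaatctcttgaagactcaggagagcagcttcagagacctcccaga
H2-Eb1: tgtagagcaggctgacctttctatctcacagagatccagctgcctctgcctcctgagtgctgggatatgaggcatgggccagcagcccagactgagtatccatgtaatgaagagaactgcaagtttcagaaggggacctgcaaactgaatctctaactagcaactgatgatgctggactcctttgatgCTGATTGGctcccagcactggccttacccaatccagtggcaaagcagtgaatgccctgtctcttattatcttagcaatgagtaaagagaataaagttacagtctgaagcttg
H2-Oa: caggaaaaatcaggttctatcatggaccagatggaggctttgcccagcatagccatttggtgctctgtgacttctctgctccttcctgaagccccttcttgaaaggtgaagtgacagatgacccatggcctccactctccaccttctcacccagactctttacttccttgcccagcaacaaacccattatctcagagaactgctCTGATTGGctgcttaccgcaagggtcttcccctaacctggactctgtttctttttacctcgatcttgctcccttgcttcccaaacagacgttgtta

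MHC class I and peptide loading genes were less uniform, with 7 of 18 higher in both and 1 lower, H2-Q8 at -0.73 and -0.62, whose second probe gave -0.03 on each beam. Interferon-stimulated genes were higher in both in 4 of 36 cases and lower in 5, with opposite balances in the single comparisons: 4 higher and 10 lower of 36 on carbon arrays (all genes 31.5% and 22.2%), and 19 higher and 6 lower of 37 on gamma arrays (all genes 30.3% and 25.2%). On the later arrays described below 2 were higher and 19 lower (carbon), and 5 higher and 12 lower (50 Gy). Iigp1, an interferon-induced GTPase, had 5.83 and 5.96 in scc7 and 5.17 and 4.97 in nrs1 on carbon arrays (adjusted p = 0.0585), and 5.99 and 6.02 in scc7 and 2.09, 2.64 and 1.26 in nrs1 on gamma arrays (adjusted p = 4.66e-17). The scc7 arrays of both beams lay close together, and the nrs1 gamma arrays lay below the nrs1 carbon arrays.

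Neutrophil genes went the other way, with 7 of 12 lower in scc7 in both and 1 higher. S100a9, a calcium-binding protein of neutrophils and of inflamed squamous epithelium, had 3.52 and 3.54 in scc7 and 7.71 and 7.80 in nrs1 on carbon arrays, and -1.52 and -0.80 in scc7 and 6.66, 4.95 and 6.31 in nrs1 on gamma arrays, lower in scc7 with differences of -4.22 ± 0.45 (adjusted p = 4.95e-13) and -7.13 ± 0.41 (adjusted p = 7.93e-26). Its partner S100a8 differed by -2.88 on carbon arrays. The receptors differed among themselves: Csf3r had 1.31 and 1.16 in scc7 and 0.35 and 0.47 in nrs1 on carbon arrays, and 0.35 and 0.58 in scc7 and 0.45, 0.19 and 0.63 in nrs1 on gamma arrays, differences of 0.82 and 0.04 with the first called. Cxcr2 was lower on carbon arrays (-0.80, adjusted p = 0.00222), and the formyl peptide receptor Fpr2 was the member higher in both (1.74 and 2.10).

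Of 36 chemokines and interleukins 11 were higher in both and 7 lower, against 22.5% and 15.4% of all genes. Cxcl1 and Cxcl5, chemokines that attract neutrophils, were lower in scc7. Cxcl1 had 2.49 and 2.28 in scc7 and 5.95 and 6.16 in nrs1 on carbon arrays, and 0.79 and 0.71 in scc7 and 6.08, 4.68 and 5.89 in nrs1 on gamma arrays, and Cxcl5 had 0.84 and 0.72 in scc7 and 5.08 and 5.00 in nrs1 on carbon arrays, and -1.91 and -1.78 in scc7 and 4.71, 4.43 and 4.24 in nrs1 on gamma arrays. Cxcl12, a chemokine of stromal cells, was higher in scc7, with 2.18 and 1.90 in scc7 and -0.87 and -0.60 in nrs1 on carbon arrays, and 3.95 and 3.52 in scc7 and 0.11, -0.75 and -0.74 in nrs1 on gamma arrays.

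Mast cell genes were higher in both in 5 of 12 cases and lower in 1, against 22.5% and 15.4% of all genes. The protease Cpa3 had 2.81 and 2.90 in scc7 and 0.00 and -0.29 in nrs1 on carbon arrays, and 1.00 and 2.12 in scc7 and -0.49, 0.52 and -1.03 in nrs1 on gamma arrays, while Cma1 differed by 2.0 and 0.90 and Mcpt4 by 1.31 and 0.61, the last not called on gamma arrays (adjusted p = 0.0992). B and plasma cell genes were higher in 2 of 11 and lower in 2: Cd79a (-0.01 and -0.23) and Jchain (0.20 and 0.74) passed in neither, although Cd79a passed on gamma arrays under quantile normalization (-0.27), the replicate block (-0.25) and without nrs1 gamma replicate 2 (-0.34), and Ighm, the heavy chain of IgM, had 5.10 and 5.33 in scc7 and 1.59 and 1.68 in nrs1 on carbon arrays, and 3.22 and 3.96 in scc7 and 1.12, 0.06 and 0.31 in nrs1 on gamma arrays. Of 4 Ighm probes 1 did not pass in either comparison (0.32 and 0.25).

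Few genes of host vessels and leg tissue were called in both comparisons. Of 22 endothelial genes 1 was higher in both and 2 lower, and without nrs1 gamma replicate 2 none was higher. Pecam1 (1.00 and 0.32) and Tek (0.61 and -0.33) passed on carbon arrays and not on gamma arrays, the Tek call being lost when 1 carbon array was left out, and Kdr (0.12 and 0.23) passed on neither. Of 31 skeletal muscle genes 1 was higher in both. The mean level of the muscle list was 4.18 and 4.29 in scc7 and 2.65 and 2.62 in nrs1 on carbon arrays, and 1.82 and 2.56 in scc7 and 2.96, 1.12 and 3.88 in nrs1 on gamma arrays, so that the 3 nrs1 gamma arrays spanned more than the 2 tumours differed. Acta1 (1.15 and -0.78), Ckm (1.66 and -0.76), Mylpf (1.28 and -0.38), Tnnc2 (1.37 and -0.49) and Myh4 (1.67 and 0.16) passed in neither comparison, but all 5 passed on carbon arrays when carbon and gamma arrays were fitted separately.

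The other host markers were few. Adipoq of fat cells did not pass (-1.37 and 0.09). Alas2 of erythroid cells was called with opposite signs (0.78 and -0.85), its carbon call being lost without scc7 carbon replicate 2. Sox10 of nerve sheath cells was higher in both (0.91 and 0.38), its gamma call being lost when 1 of several arrays was left out. Cdh5 was too dim to be kept, and Igkc, Plin1, Cfd, Hbb-b1 and Hba-a1 had no probe. The macrophage and the T and NK cell lists differed in 1 direction on both beams, and the part of host cells in any single agreeing gene was not tested.

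**Figure D3:**
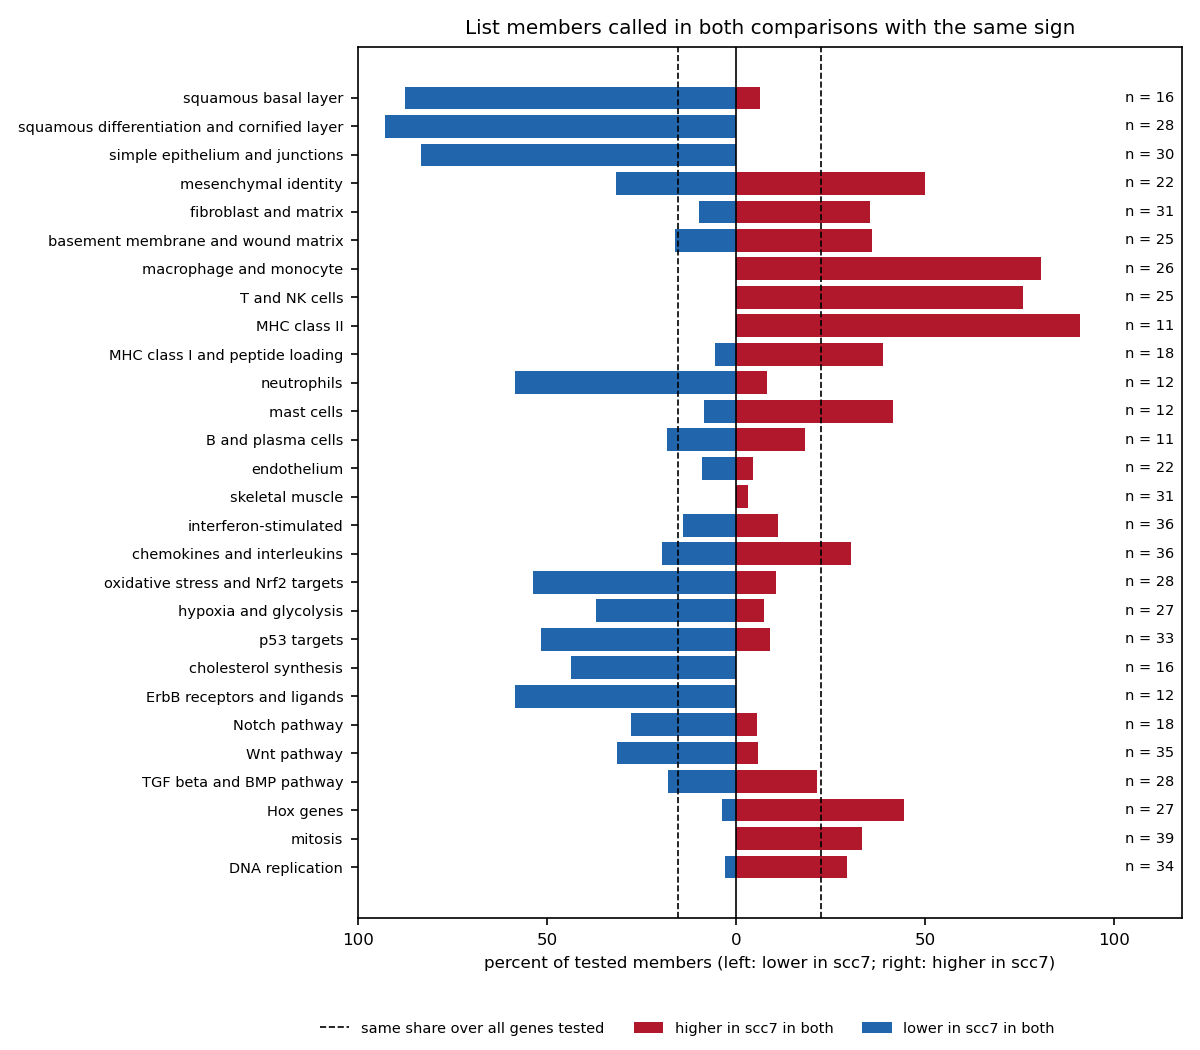
Percent of the members of 28 gene lists (rows, with the number tested in both comparisons at the right) that were called in both with the same sign, higher in scc7 to the right in red and lower to the left in blue; dashed lines mark 22.5% and 15.4%, the same shares over all 14513 genes. The 3 epithelial lists reach furthest left, and the macrophage, T and NK cell and MHC class II lists reach furthest right.

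Many detoxification genes were lower in scc7 than in nrs1. Gsta4, a glutathione transferase that clears lipid aldehydes, had 1.87 and 1.70 in scc7 and 8.64 and 8.64 in nrs1 on carbon arrays, and 1.18 and 1.16 in scc7 and 8.37, 8.16 and 8.27 in nrs1 on gamma arrays, lower in scc7 with differences of -6.86 ± 0.23 (adjusted p = 2.02e-39) and -7.09 ± 0.21 (adjusted p = 7.27e-43). The quinone reductase Nqo1 had 0.89 and 0.70 in scc7 and 2.92 and 2.93 in nrs1 on carbon arrays, and 2.11 and 1.79 in scc7 and 4.05, 4.31 and 3.77 in nrs1 on gamma arrays. The cystine transporter Slc7a11 had 1.51 and 1.37 in scc7 and 4.22 and 4.19 in nrs1 on carbon arrays, and 0.25 and 0.84 in scc7 and 5.34, 3.77 and 5.22 in nrs1 on gamma arrays, and Osgin1 differed by -2.80 and -2.22.

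Of 28 genes on the list of oxidative stress and Nrf2 targets 15 were lower in scc7 in both and 3 higher. The median was -0.99 over 31 genes on carbon and -0.85 over 28 on gamma arrays. The 3 higher ones do not follow the list: the ferritin chain Ftl1 (1.08 and 0.41), the sulfiredoxin Srxn1 (0.72 and 1.08) and the thioredoxin reductase Txnrd1 (0.45 and 0.80). Each lost a call under some alternative. Ftl1 lost its gamma call under several, among them quantile normalization and leaving out nrs1 gamma replicate 2. Srxn1 lost its carbon call with only the arrays compared, and Txnrd1 lost both calls with missing values at the floor. The mean level of the list was 3.38 and 3.37 in scc7 and 4.35 and 4.33 in nrs1 on carbon arrays, and 3.32 and 3.31 in scc7 and 4.73, 4.34 and 4.51 in nrs1 on gamma arrays.

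Hypoxia and glycolysis genes were lower in scc7 in both in 10 of 27 cases and higher in 2. Vegfa, the growth factor of vessels, had 3.36 and 2.95 in scc7 and 5.99 and 5.97 in nrs1 on carbon arrays, and 4.66 and 4.44 in scc7 and 6.93, 6.41 and 7.08 in nrs1 on gamma arrays, lower with differences of -2.83 ± 0.27 (adjusted p = 1.01e-14) and -2.26 ± 0.25 (adjusted p = 1.42e-12). The prolyl hydroxylase Egln3 differed by -1.78 and -1.86 and the oxidoreductase Ero1a by -2.21 and -2.22, although a second Ero1a probe gave 0.24 and 0.41. The collagen prolyl hydroxylase P4ha1 (0.91 and 1.37) and the glycolytic regulator Pfkfb4 (1.31 and 1.81) were the 2 higher members.

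Of 33 p53 targets 17 were lower in scc7 in both and 3 higher, with medians of -0.60 and -0.39. Without nrs1 gamma replicate 2 these counts were 14 lower and 5 higher. Plk2, a kinase, had 3.96 and 4.01 in scc7 and 6.58 and 6.56 in nrs1 on carbon arrays, and 4.30 and 4.42 in scc7 and 7.04, 6.55 and 7.04 in nrs1 on gamma arrays, and the cell death protein Pmaip1 had 2.65 and 2.76 in scc7 and 5.35 and 5.28 in nrs1 on carbon arrays, and 1.14 and 1.16 in scc7 and 4.63, 4.41 and 4.62 in nrs1 on gamma arrays. Perp, named above as a desmosomal protein, is also on this list. Cdkn1a, the inhibitor of cyclin-dependent kinases, had 5.92 and 5.77 in scc7 and 6.72 and 6.37 in nrs1 on carbon arrays, and 5.68 and 5.66 in scc7 and 6.16, 6.14 and 6.07 in nrs1 on gamma arrays, a smaller difference of -0.70 on carbon and -0.45 on gamma arrays whose call was lost when 1 of several arrays was left out. Rrm2b (0.28 and 0.34) and Trp53inp1 (0.47 and 1.14) were among the 3 higher members. Rrm2b lost its carbon call under quantile normalization and when 1 of several carbon arrays was left out. With only the arrays compared it lost its call on both beams.

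Single genes of epithelial receptor pathways differed as well. Of 12 ErbB receptors, ligands and adaptors 7 were lower in scc7 in both and none higher, against 15.4% and 22.5% of all genes. Erbb3 had 2.46 and 2.71 in scc7 and 5.45 and 5.77 in nrs1 on carbon arrays, and 1.29 and 1.65 in scc7 and 5.16, 5.71 and 4.93 in nrs1 on gamma arrays, Erbb2 differed by -2.12 and -1.70 and Egfr by -0.90 and -0.63. The adaptor Grb7 had -0.98 and -0.83 in scc7 and 4.72 and 5.01 in nrs1 on carbon arrays, and -0.98 and -1.71 in scc7 and 4.37, 3.90 and 4.07 in nrs1 on gamma arrays. The receptor Notch1 had 2.99 and 2.94 in scc7 and 5.09 and 4.94 in nrs1 on carbon arrays, and 2.21 and 2.08 in scc7 and 4.86, 5.91 and 5.29 in nrs1 on gamma arrays, and its ligand Jag2 had -0.41 and -0.13 in scc7 and 3.63 and 3.94 in nrs1 on carbon arrays, and -0.62 and -0.89 in scc7 and 4.69, 4.70 and 4.80 in nrs1 on gamma arrays. Of 18 Notch pathway genes 5 were lower in both and 1 higher, beside the same shares of all genes.

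In the Wnt pathway 11 of 35 genes were lower in both and 2 higher, against 15.4% and 22.5% of all genes. The ligand Wnt4 had -1.07 and -1.03 in scc7 and 5.98 and 6.10 in nrs1 on carbon arrays, and -2.14 and -1.77 in scc7 and 5.47, 5.55 and 5.55 in nrs1 on gamma arrays, while Wnt10b was higher in scc7 with 0.99 and 1.28 in scc7 and -1.11 and -1.25 in nrs1 on carbon arrays, and 1.87 and 1.64 in scc7 and -1.38, -1.17 and -1.52 in nrs1 on gamma arrays. Ligands of the BMP family also split: Bmp7 was lower (-4.26 and -4.03) and Bmp2 higher (1.95 and 2.77). Of 28 genes of the TGF beta and BMP pathway 6 were higher in both and 5 lower, close to the 22.5% and 15.4% of all genes.

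Many Hox genes, which keep a record of body position, were higher in scc7. Hoxc9 had 3.33 and 3.55 in scc7 and -0.78 and -0.71 in nrs1 on carbon arrays, and 4.32 and 4.10 in scc7 and -1.33, -1.52 and -0.83 in nrs1 on gamma arrays, higher by 4.18 ± 0.16 (adjusted p = 1.68e-36) and 5.44 ± 0.15 (adjusted p = 3.63e-46). Hoxc8 had 3.00 and 2.92 in scc7 and -0.13 and -0.08 in nrs1 on carbon arrays, and 3.84 and 3.26 in scc7 and -1.56, -0.76 and -1.0 in nrs1 on gamma arrays. Hoxa5 differed by 3.00 and 4.68 and Hoxa10 by 2.38 and 4.07. Of 27 Hox genes 12 were higher in both and 1 lower, against 22.5% and 15.4% of all genes. The lower one was Hoxb13 at -0.37 and -0.31, a small difference that lost its call under several alternatives.

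Proliferation genes differed by less. Mki67, an antigen of cycling cells, had 6.81 and 6.71 in scc7 and 5.73 and 5.77 in nrs1 on carbon arrays, and 6.93 and 7.01 in scc7 and 6.24, 6.34 and 6.47 in nrs1 on gamma arrays, and the condensin subunit Ncapd2 differed by 0.85 and 0.84. Of 39 mitosis genes 13 were higher in scc7 in both and none lower, but no member reached 2-fold in both. Of 34 replication genes 10 were higher and 1 lower. Of all genes 22.5% were higher in both and 15.4% lower. Without nrs1 gamma replicate 2 the mitosis count was 9. Cholesterol synthesis genes were lower in 7 of 16 cases and higher in none, among them Idi1 (-2.29 and -1.66) and Sc5d (-2.42 and -1.63).

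The remaining lists are given by their counts, beside 22.5% higher and 15.4% lower of all genes. Higher and lower in scc7 in both were 2 and 2 of 12 dendritic cell genes, 2 and 1 of 10 Hedgehog pathway genes, 1 and 2 of 16 imprinted and fetal genes, 2 and 3 of 11 germline genes and 1 and 3 of 11 keratins outside the epidermal lists. For 9 fat cell genes the counts were 3 and 1, for 7 nerve and Schwann cell genes 3 and 1, for 2 erythroid genes 0 and 0, for 21 ribosomal protein genes 0 and 3 and for 26 respiratory chain genes 2 and 1.

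Of 5 sex chromosome genes tested in both comparisons 2 were higher in scc7, none was lower and 3 were in neither class. Xist, the RNA that coats the inactive X chromosome of females, had -2.53 and -2.43 in scc7 and 3.85 and 3.67 in nrs1 on carbon arrays, and on gamma arrays no value in scc7 and 2.88, 2.47 and 3.22 in nrs1. With no filter on dim probes another Xist probe stood for the gene and its carbon difference was -0.03 (adjusted p = 0.933), so the probes disagree. The Y-linked Eif2s3y had 3.80 and 3.92 in scc7 and 1.43 and 1.61 in nrs1 on carbon arrays, and 2.90 and 3.11 in scc7 and 1.39, 1.02 and 1.59 in nrs1 on gamma arrays, and the Y-linked Uty had 0.01 and -0.14 in scc7 and -1.75 and -2.08 in nrs1 on carbon arrays, and -0.90 and -0.62 in scc7 and -2.25, -2.88 and -2.13 in nrs1 on gamma arrays. On the late carbon arrays described below Uty did not pass (0.30, adjusted p = 0.344). The hosts were male, and the sex of the mice in which the tumours arose is not given in the sources used here.

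A further 609 genes could be tested on carbon arrays and not on gamma arrays. Of these 275 were lower in scc7, 259 of them with fewer than 2 gamma values in scc7 and at least 2 in nrs1, and 124 were higher, 73 of them with the reverse. The squamous keratin Krt13 had -2.58 and -2.89 in scc7 and 8.62 and 8.75 in nrs1 on carbon arrays and, on gamma arrays, 5.65, 5.27 and 5.88 in nrs1 alone. Sprr2d differed by -10.04. The antimicrobial peptide Defb1 (-9.74) and Krt6b (-9.50) each had 1 of 2 scc7 carbon arrays at the floor, so their size depends on the floor. On the higher side Dcaf8l had 3.36 and 3.40 in scc7 against both nrs1 carbon arrays at the floor, at least 82.1-fold higher, and Gpr149 (5.25, with 1 nrs1 array at the floor) and Nxf3 (4.85) also had gamma values in scc7 alone.

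Of the 198 genes with opposite calls, 120 were higher in scc7 on carbon arrays and 78 lower. Ido1, which degrades tryptophan and is induced by interferon, had 0.08 and 0.26 in scc7 and 4.35 and 4.38 in nrs1 on carbon arrays, and 0.17 and 0.27 in scc7 and -1.44, -1.85 and -1.75 in nrs1 on gamma arrays, differences of -4.20 ± 0.27 (adjusted p = 4.51e-23) and 1.90 ± 0.25 (adjusted p = 3.62e-10). Its scc7 values were alike on both beams, and those of nrs1 were not. AA467197 (-1.55 and 2.12) and the anchoring collagen Col7a1 (-1.12 and 1.49, its gamma values overlapping) had the same order of signs. The 3 genes of the opposite order were Thbs4 (2.32 and -2.68), Csrp3 (2.06 and -1.76) and Myoz2 (2.04 and -1.81), the last 2 being sarcomere genes; each of these lost its call when single arrays were left out. The muscle list levels given above moved with them, and their part was not tested.

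The difference between the tumours was itself tested between the beams, as the carbon difference minus the gamma difference, and 3018 of 14513 genes (20.8%) were called. Among the agreeing genes at least 2-fold in both, 293 of the 1158 higher and 330 of the 891 lower were called. These genes were kept for 1 sign in both, so only their size could differ. Examples were Gzmf (-4.40) and Hoxa5 (-1.68), and Krt14 was not called (0.62, adjusted p = 0.299).

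Later arrays of both tumours, which the choice of genes did not use, gave the same comparison at unequal days. On carbon arrays scc7 was sampled at day 42 and nrs1 at day 20 (2 arrays each), and 3780 of 15006 genes (25.2%) were higher in scc7 and 4073 (27.1%) lower. After 50 Gy of gamma rays scc7 was sampled at day 23 (2 arrays) and nrs1 at day 15 (3 arrays), and 5329 of 14768 genes (36.1%) were higher and 2785 (18.9%) lower. Tumour and day cannot be told apart there. Of the agreeing genes at least 2-fold higher, 1058 of 1131 tested on the late carbon arrays and 1129 of 1146 tested on the 50 Gy arrays were called in the same direction. Of those at least 2-fold lower the counts were 843 of 872 and 844 of 854.

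Single genes departed from this. Gzmg had -1.45 and -2.73 in scc7 and -0.86 and -0.76 in nrs1 on the late carbon arrays (adjusted p = 0.225), and -2.58 and -0.26 in scc7 and -0.57, -0.50 and -1.40 in nrs1 on the 50 Gy arrays (adjusted p = 0.56), and Gzmf differed by -1.82 (adjusted p = 0.0675) and -2.13 (adjusted p = 0.0167). Gzma was lower in scc7 on the late carbon arrays, with 0.32 and 0.42 in scc7 and 3.30 and 3.32 in nrs1. Gzmg and Gzmf were thus low on the scc7 arrays of days 42 and 23, where they had been high at days 5 and 8; the change within scc7 was not tested. The 2 scc7 arrays of day 35 after 50 Gy were not used here. Prf1 stayed higher in scc7 (2.27 and 2.66), as did Mrc1 (2.5 and 4.41), and Cpa3 differed by more than before (4.94 and 5.94), which was not itself tested. Krt14 differed by -10.74 and -10.47.

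**Figure D4:**
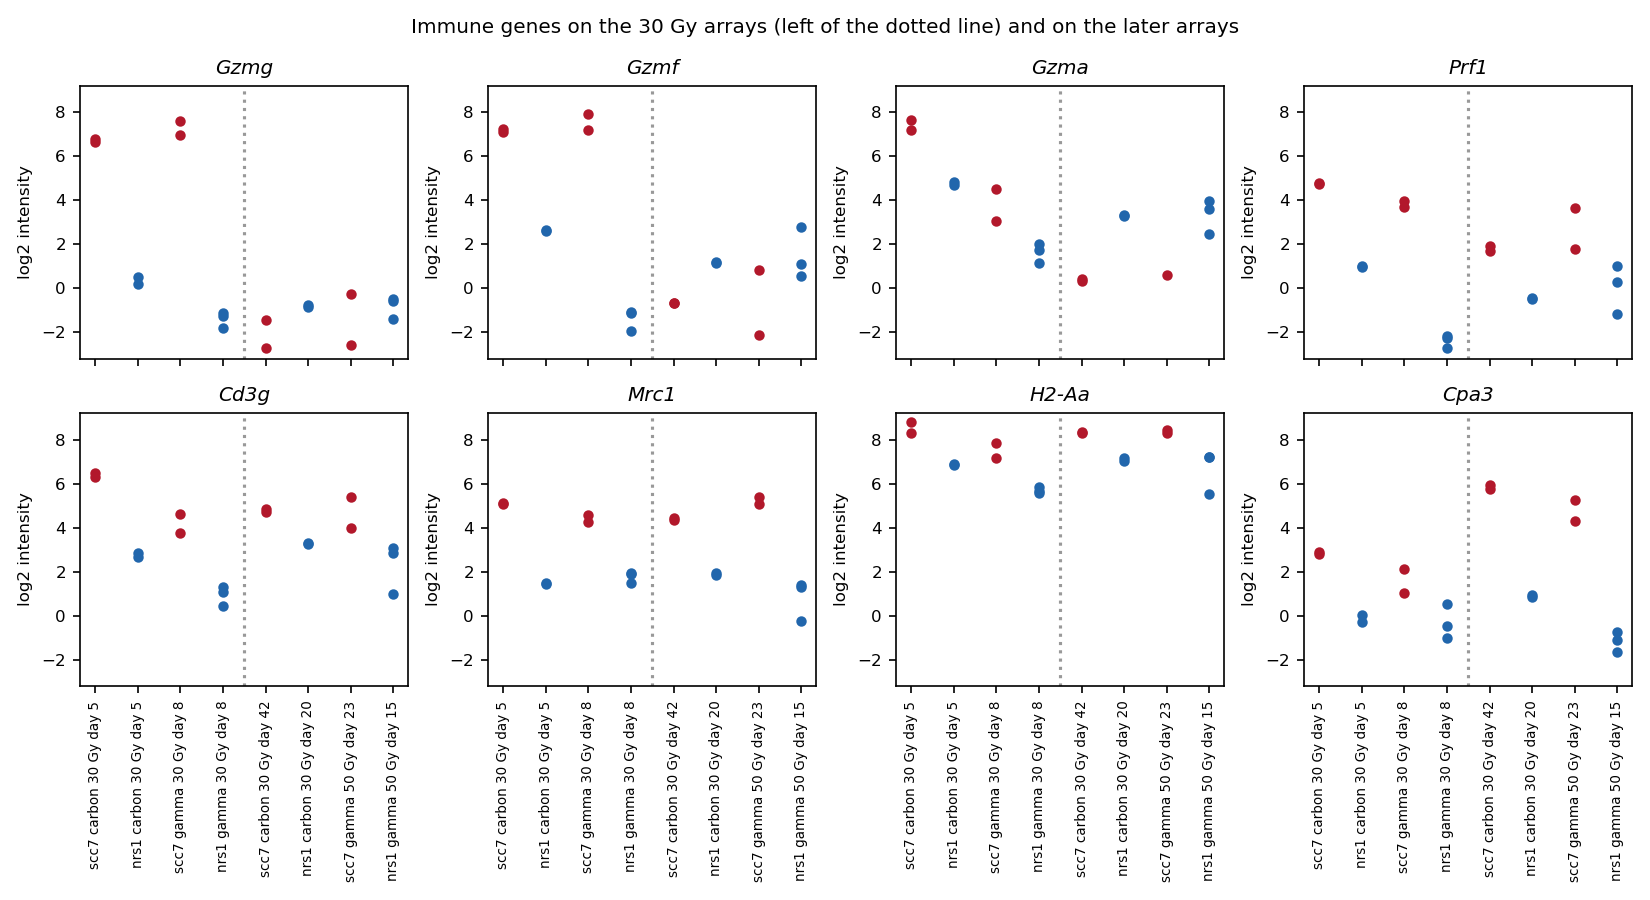
Log2 intensity (vertical axis) of 8 immune genes on 18 arrays of scc7 (red) and nrs1 (blue), without the 2 scc7 arrays of day 35, with the 30 Gy day 5 and day 8 arrays left of the dotted line and the later arrays right of it. Gzmg and Gzmf are at 6.66 or more on the 4 early scc7 arrays and at 0.83 or less on the 4 later ones shown, while Mrc1 and H2-Aa are higher in scc7 within each beam and time.

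The other 4 tumours of the series place the pair after the same dose, at day 5 for carbon ions and days 8 to 11 for gamma rays. Across genes the carbon group means of scc7 correlated at r = 0.960 with the spontaneous fibrosarcoma nfsa and 0.963 with the radiation-induced fibrosarcoma, at 0.896 and 0.899 with the mammary carcinomas mmca and mca4, and at 0.869 with nrs1. On gamma arrays these values were 0.938, 0.955, 0.889, 0.896 and 0.880. These are descriptions over 14996 to 15325 genes, which share arrays and are no replicates. The order puts scc7 beside the fibrosarcomas, and nrs1 was nearer to the mammary carcinomas (0.906 and 0.904 on carbon arrays).

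For the agreeing genes at least 2-fold apart, a tumour was counted as nearer to scc7 where its group mean lay closer to that of scc7 than to that of nrs1. The fibrosarcomas were nearer to scc7 in 72.2 to 81.7% of the genes higher in scc7 and in 79.7 to 91.6% of those lower. The mammary carcinomas were nearer in 27.4 to 40.1% and in 52 to 54.7%. These genes were chosen by the same scc7 and nrs1 values, and the share over all tested genes was not taken. Mean Krt14 was 0.14 or less in both fibrosarcomas and 4.63 or more in both mammary carcinomas on either beam. For Hoxc9 nrs1 stood alone, at -0.74 and -1.23 against 2.08 or more in the other 5 tumours, and for Wnt4 it stood alone at 6.04 and 5.52 against 1.32 or less.

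**Figure D5:**
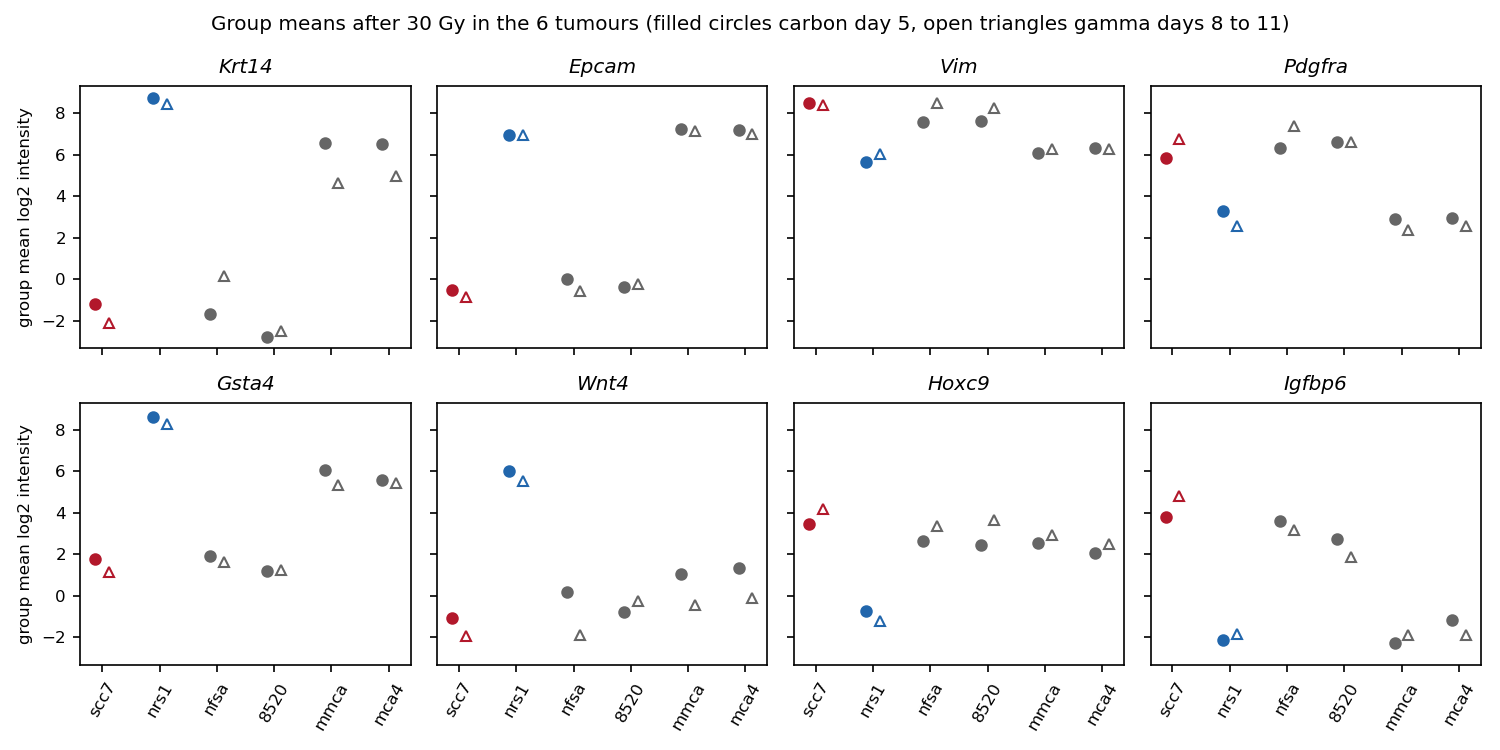
Group mean log2 intensity (vertical axis) of 8 genes in the 6 tumours (horizontal axis) after 30 Gy, with filled circles for carbon day 5 and open triangles for gamma days 8 to 11, scc7 in red, nrs1 in blue and the 2 fibrosarcomas and 2 mammary carcinomas in grey. For Krt14, Epcam, Vim, Pdgfra, Gsta4 and Igfbp6 scc7 lies with the fibrosarcomas and nrs1 with the mammary carcinomas or beyond them.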

How the data were processed

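Intensities on a linear scale, normalized by the authors, were used as deposited for 36227 probes on 121 arrays of 54 groups; the method of that normalization, the scanner software and the background correction are not given in the sources used here. Gene symbols came from the platform annotation: 21615 probes had 1 symbol, 681 several and 13931 none, and only the first were used, 21487 of them with an Entrez identifier in the RefSeq table.

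Values under the 5th percentile of positive values (intensity 0.1269) were set to it, and log2 was taken. Missing values stayed missing. Each gene was read by the probe with most values on the 9 arrays, then the highest mean, and probes whose mean over the 9 arrays was not above the 20th percentile were left out, which left 15366 genes. A group needed at least 2 values. One limma model (version 3.58.1, R 4.3.3) with a mean for each group was fitted over all 121 arrays, with 67 residual degrees of freedom, eBayes with a mean-variance trend, and Benjamini-Hochberg adjustment over all genes tested in each contrast at 0.05. It was tested on simulated data. Errors are the standard errors of that model. Replicate numbers were not taken as pairs: deviations of same-numbered arrays correlated at 0.0551 (carbon) and -0.0775 (gamma) between the tumours.

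The comparison, gene lists and tests were chosen with earlier results of these data known. Genes were named by rule: the 12 largest by the smaller difference in each direction among agreeing genes without overlap of arrays, the 3 largest in each direction with opposite calls, the 4 largest in each direction that lacked gamma values in 1 tumour, up to 4 members of each list, and markers of tissue and host cell types; only a part of those is printed. Chosen after their values were seen were Cdkn1a, Cldn4, Dst, Egfr, Foxp3, Fpr2, Ftl1, H2-Eb1, H2-Oa, H2-Q8, Hoxb13, Iigp1, Nqo1, P4ha1, Pfkfb4, Rrm2b, Srxn1, Trp53inp1, Txnrd1, Wnt10b and Xist. The alternatives tried were missing values at the floor, quantile normalization, dim probes kept, a floor at the 10th percentile, a value on at least 90% of arrays, every probe, no trend, only the arrays compared, beams fitted separately, a replicate block, and each array left out. The number of arrays limits the precision.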

Additional observations from a re-analysis of the deposited data

Results flagged for a closer look

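The difference between scc7 and nrs1 was tested between the beams for 135 of the 151 genes named. Of these 45 were called, 10 of them with opposite signs in the 2 comparisons. Of all 14513 genes 20.8% were called. The named genes are no random draw, and AA467197, Col7a1, Csrp3, Ido1, Myoz2 and Thbs4 were named for their opposite calls. Values are the log2 difference scc7 minus nrs1 on carbon 30 Gy day 5 arrays minus that on gamma 30 Gy day 8 arrays. With opposite signs were AA467197 (-3.68), Alas2 (1.63), Col7a1 (-2.6), Csrp3 (3.82), Ido1 (-6.09), Lum (3.33), Myoz2 (3.85), Tek (0.94), Thbs4 (5.01) and Zeb1 (1.2). Higher in scc7 on both beams and further apart on gamma arrays were Arsj (-1), C1qb (-0.87), Cxcl12 (-1.42), Gfra2 (-1.48), Gzmf (-4.4), Hoxa10 (-1.69), Hoxa5 (-1.68), Hoxc8 (-1.59), Hoxc9 (-1.25), Iigp1 (-3.18), Pdgfra (-1.64), Prf1 (-2.45), Scrn1 (-0.94), Trp53inp1 (-0.67) and Wnt10b (-0.79). Higher on both and further apart on carbon arrays were Cd2 (2.27), Csf3r (0.78) and Ftl1 (0.68). Lower in scc7 on both and further apart on carbon arrays were Cldn4 (-2.14), Sbsn (-0.88), Sc5d (-0.79), Sprr1b (-2.5), Sprr2f (-3.03) and Sprr3 (-3.11). Lower on both and further apart on gamma arrays were Cxcl5 (2.04), Dsp (1.18), Erbb3 (0.77), Jag2 (1.43), Notch1 (1.16), Perp (0.95), Pmaip1 (0.8), S100a9 (2.91), Slc7a11 (1.46), Snai2 (1.91) and Trp63 (1.57). These groupings go by the estimates, and not every gene passed on both beams. Beam and day change together here and cannot be told apart, and array runs, which the labels do not name, may change with them.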

How the results depend on the processing

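Agreeing genes numbered 2532 to 3375 higher and 1673 to 2391 lower in scc7 over the alternatives, and 2921 to 3218 and 1959 to 2247 when single arrays were left out. The count of genes whose difference was higher on carbon than on gamma arrays was 662 with only the comparison's own arrays, against 1594, and that of genes lower on carbon was 734, against 1424; leaving out single arrays gave 1045 to 1975 and 990 to 1529, the lowest being without scc7 gamma replicate 1. The cause was not tested. With the replicate block, agreeing genes were 3259 higher and 2251 lower. Without nrs1 gamma replicate 2, an alternative chosen after seeing the data, counts in both comparisons moved for p53 targets (5 higher), endothelium (0 higher), keratins outside the epidermal lists (0 higher), interferon-stimulated genes (3 lower) and imprinted genes (1 lower). Among named genes, calls of Alas2, C1qb, Cdkn1a, Cma1, Col3a1, Col7a1, Csrp3, Cxcr2, Dcn, Dst, Ftl1, Hoxb13, Lum, Myoz2, Pecam1, Rrm2b, Sox10, Srxn1, Tek, Thbs4, Twist1, Txnrd1, Xist and Zeb1 were lost under at least 1 alternative. Calls were gained for Acta1, Adipoq, Ckm, Col1a2, Iigp1, Lum, Myh4, Mylpf, Tnnc2 and Zeb1 on carbon arrays with the beams fitted separately (Lum also with only the arrays compared), and on gamma arrays for Cd79a as given above, for Mcpt4 without scc7 gamma replicate 1 or nrs1 gamma replicate 2, and for Col1a1 without nrs1 gamma replicate 2.

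Signs turned for 9 marker genes that had passed no test on that beam. Gamma differences were 0.0126 for Lor under quantile normalization and -0.12 for Adipoq under the replicate block. With single arrays left out they ranged from -0.114 to 0.0363 for Lor, -1.26 to 1.44 for Adipoq, -2.35 to 0.41 for Ckm, -1.66 to 0.26 for Tnnc2, -1.29 to 0.21 for Mylpf, -0.85 to 0.90 for Myh4, -0.0758 to 0.156 for Csf3r and -0.22 to 1.70 for Jchain, and the carbon difference of Cd79a from -0.13 to 0.11. Dim genes are limited by the missing gamma values: a gene without values in 1 tumour has no gamma comparison.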
